A study of Mus musculus with 2 samples.

Results

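Peroxisome biogenesis and peroxisomal lipid oxidation were examined in the small intestine of a single female C57BL/6J mouse, an adult of 10 weeks. The members are 32 peroxisomal genes from a fixed list, out of 43346 Ensembl genes in the deposited tables, and all of them were found by symbol. They fall into 13 peroxins, which build the organelle, and 19 enzymes, which work inside it or at its membrane. Poly(A) RNA was sequenced in 2 technical libraries of the same tissue, with no treatment, mutation or second animal, so n = 1 animal. The labels say that the second library was made later than the first, and do not say whether both libraries came from 1 RNA extraction. Where a pair of values is given, the first library comes before the second. Every test below compares these 2 libraries and covers counting error only, and no value describes the spread between mice.

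Peroxisomes are organelles bounded by a single membrane that shorten very long chain and branched fatty acids, make the first part of ether lipids and remove the hydrogen peroxide formed on the way. They have no genome. Their matrix enzymes are made in the cytosol, recognised by import receptors through short signals at an end of the protein, and carried through a docking complex in the membrane. In the small intestine they are most abundant in the absorptive cells of the villus, the enterocytes.

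The libraries held 28277875 and 24509862 expected counts, which are read counts estimated per gene. Mitochondrial genes and their nuclear copies took 72.3% and 21.6% of TPM (a level corrected for transcript length and scaled to the same sum in each library), so the TPM of other genes is compressed in the first library. All 8 enterocyte markers stood at 10 TPM or more in both libraries, with a sum of 6665 and 24154 TPM. The 8 hepatocyte markers summed to 6.61 and 18.7 TPM, and 1 and 4 of them reached 1 TPM. Cyp2e1 was the highest at 4.66 and 10.9 TPM. Next came Alb in the first library, at 0.67 and 0.34 TPM, and Ttr in the second, at 0.53 and 4.64 TPM. Ahsg stood at 0 counts in both. The 6 pancreatic acinar markers summed to 701 and 8821 TPM, the 7 adipocyte markers to 42.8 and 319 TPM, the 6 smooth muscle markers to 28.3 and 635 TPM, and the 5 immune markers to 488 and 647 TPM. Each of these sums was larger in the second library on the TPM scale. As a share of TPM without mitochondrial genes, the immune markers went the other way, from 0.177% to 0.0825%. The hepatocyte markers stood at 0.00239% and 0.00238% on that scale. Most of the immune sum was Jchain, at 443 and 477 TPM. With mitochondrial genes left out, Jchain went from 1599 to 608 TPM and Ptprc from 80.1 to 24.4 TPM. Lyz2 rose from 80.9 to 172 TPM, Cd79a from 0.289 to 14.4 TPM and Cd3e from 4.30 to 6.08 TPM, so the immune markers did not move together. The part of such cells in the members' differences was not tested. In whole tissue, fewer cells of a type and less RNA per cell cannot be told apart. Both libraries are of the same tissue of 1 mouse, and they also differ in how counts depend on GC content, as described below. The median GC content was 53.1% for the acinar, 52.8% for the smooth muscle, 50.5% for the adipocyte and 48.3% for the immune markers. Over all genes tested it was 50.4%. Once the GC trend was removed, the median log2 ratios of these lists (second over first library) were 2.13, 1.90, 2.18 and 1.05. The enterocyte markers stood at 0.66 and the 5 tested hepatocyte markers at 0.34, against -0.01 for all genes.

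Levels of the members ran from 0 to 452 TPM in the first library and from 5.69 to 1438 TPM in the second. The enzymes held 93.0% and 90.1% of the members' summed TPM. Scp2, Phyh, Cat and Crot together made up 82.6% and 64.5% of that sum. The 3 most abundant members were the same in both libraries, in the order Scp2, Phyh and Cat. Below them the order changed: Spearman's rho between the libraries over the 32 members was 0.407, against 0.619 over all nuclear genes tested. Pex16 was rank 32 in the first library and rank 10 in the second, Ech1 moved from 23 to 4, and Far1 from 13 to 32.

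**Figure D1:**
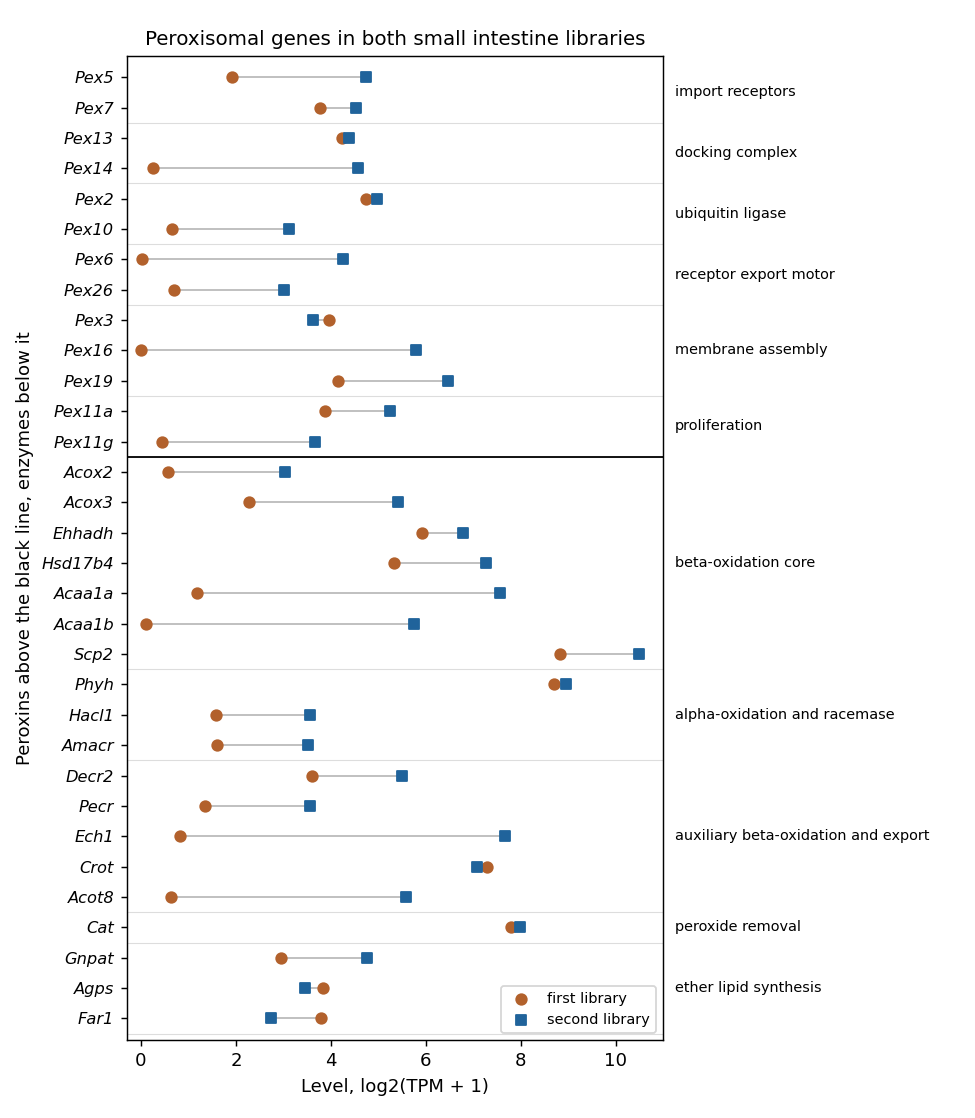
Level of each member as log2(TPM + 1), with circles for the first library and squares for the second and a grey line joining them. Peroxins lie above the black line and enzymes below it. On this scale, which mitochondrial RNA compresses in the first library, 28 of 32 members had more TPM in the second library.

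Median levels were 2.77 and 22.2 TPM for the peroxins and 6.75 and 47.3 TPM for the enzymes. On the log2(TPM + 1) scale, averaged over both libraries, the median was 3.33 for peroxins, 3.86 for enzymes and 3.61 for the 9147 genes at 1 TPM or more in both. The difference in medians was 0.54 in this average, 1.04 within the first library and 1.06 within the second. The gap between the libraries within either class was larger, 1.91 against 4.54 for peroxins and 2.95 against 5.59 for enzymes. That gap is on the TPM scale, which mitochondrial RNA compresses in the first library for both classes. In the first library 7 of 13 peroxins and 15 of 19 enzymes reached 1 TPM, while all 32 members did so in the second. In the plot of levels by gene, members that lie close to each other in the second library are spread from 0 to the upper part of the range in the first.

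Because TPM shares are compressed by mitochondrial RNA in the first library, the libraries were compared on counts. The log2 ratio is the second over the first library after scaling by TMM, a trimmed mean of ratios, and it is given with its counting standard error (SE). A gene was called different at a Benjamini-Hochberg adjusted p under 0.05 in an exact binomial test and a difference of 2-fold or more. All 32 members had the 20 counts required. Of these, 15 were called higher in the second library, which is 46.9% against 40.2% of the 15194 genes tested, and 8 were called higher in the first, which is 25.0% against 27.5%. Both shares lie near those of all genes. By class, 7 peroxins and 8 enzymes were called higher in the second library, and the first was called higher for 2 peroxins and 6 enzymes. The median log2 ratio was 1.83 for peroxins and 0.70 for enzymes, against 0.26 for all genes tested.

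The differences followed base composition. GC content is the percentage of G and C in a gene's annotated transcripts, and its Spearman correlation with the log2 ratio was 0.852 over the 32 members, 0.830 over the peroxins and 0.888 over the enzymes. Over all 15127 nuclear genes tested it was 0.855, so the members show the pattern of the whole transcriptome. These correlations are across genes, which share the same 2 libraries and are not replicates. Of the 19 members at 50% GC or more, the second library was higher for 14 and the first for 2. Of the 13 members under 50% GC, the second library was higher for 1 and the first for 6. Among all genes tested, the second library was higher for 72.7% of those at 50% GC or more and for 4.80% of those under it, and the first library for 2.91% and 54.1%. In the first library the TPM level itself fell with GC content across members, with a rho of -0.748, while in the second library the rho was 0.0403.

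**Figure D2:**
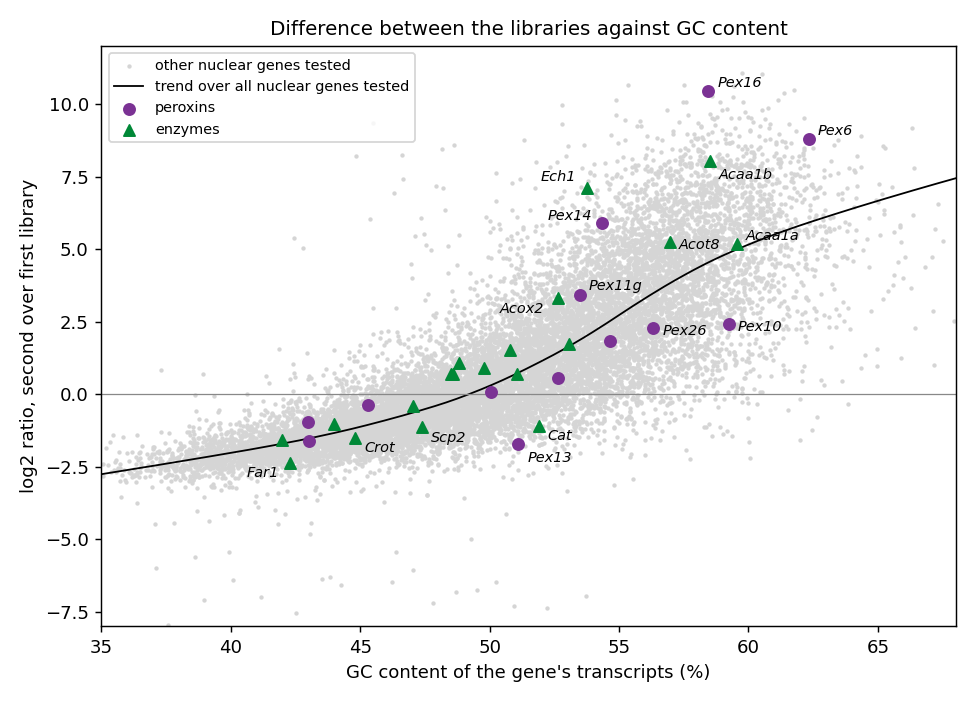
Log2 ratio of the second over the first library (vertical axis) against the GC content of the gene's transcripts in percent (horizontal axis). Grey points are other nuclear genes tested, of which 33 of 15127 lie outside the axes, the black line is the trend over them, and the members (circles for peroxins, triangles for enzymes) rise along it from Far1 at -2.36 to Pex16, which is drawn with a prior count since its first-library count was 0.

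The stretches below show what that difference in composition looks like in the members with the 2 lowest and the 2 highest log2 ratios. Each is the opening 90 bases of the longest coding exon, read 5' to 3' on the coding strand of mm10 from GENCODE M21 transcripts, with G and C in capitals. They come from chr7:113539278-113539367 for Far1, chr11:23656041-23656130 for Pex13, chr17:46711500-46711589 for Pex6 and chr2:92378796-92378885 for Pex16. Their GC contents are 45.6%, 51.1%, 71.1% and 62.2%, in that order.
Far1: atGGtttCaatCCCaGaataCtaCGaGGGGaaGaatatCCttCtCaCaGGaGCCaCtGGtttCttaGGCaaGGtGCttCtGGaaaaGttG
Pex13: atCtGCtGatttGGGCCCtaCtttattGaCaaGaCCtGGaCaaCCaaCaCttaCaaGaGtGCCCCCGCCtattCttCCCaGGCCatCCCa
Pex6: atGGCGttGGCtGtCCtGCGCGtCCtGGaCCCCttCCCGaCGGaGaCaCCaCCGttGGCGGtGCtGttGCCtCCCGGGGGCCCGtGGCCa
Pex16: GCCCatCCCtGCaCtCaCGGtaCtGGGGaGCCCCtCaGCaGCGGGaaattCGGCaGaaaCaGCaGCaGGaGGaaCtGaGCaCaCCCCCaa
Far1, at 42.3% GC over its transcripts, had 1341 and 404 counts, whereas Pex6, at 62.3%, had 1 and 1038. Why GC-rich transcripts were scarce in the first library was not tested, and the date of library making cannot be told apart from the other ways in which these libraries differ.

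A lowess trend of the log2 ratio on GC content was therefore removed, and the same test was repeated. After this, 9 members were called higher in the second library, against 17.5% of 15151 genes, and 4 in the first, against 17.6%. As shares of the 32 members these are 28.1% and 12.5%. The median fell to -0.09 for peroxins, so its sign turned, and to 0.33 for enzymes, against -0.01 for all genes. Under 3 settings, as counted, with the trend removed, and with the trend removed on GC content weighted by transcript share, 8 members (25.0%) were called higher in the second library each time, against 12.1% of the 15142 genes tested in all 3. They were Pex14, Pex6, Pex16, Pex11g, Acox2, Acaa1b, Ech1 and Acot8. Of these, 7 had under 20 counts in the first library and passed the count filter only through the second, where they are high, so their number is a description and no support for a difference of the group. Among all 1835 genes that kept this call, 1024, or 55.8%, were also under 20 counts in the first library. Cat alone (3.12% of members) was called higher in the first library under all 3 settings, against 2.68% of genes.

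**Figure D3:**
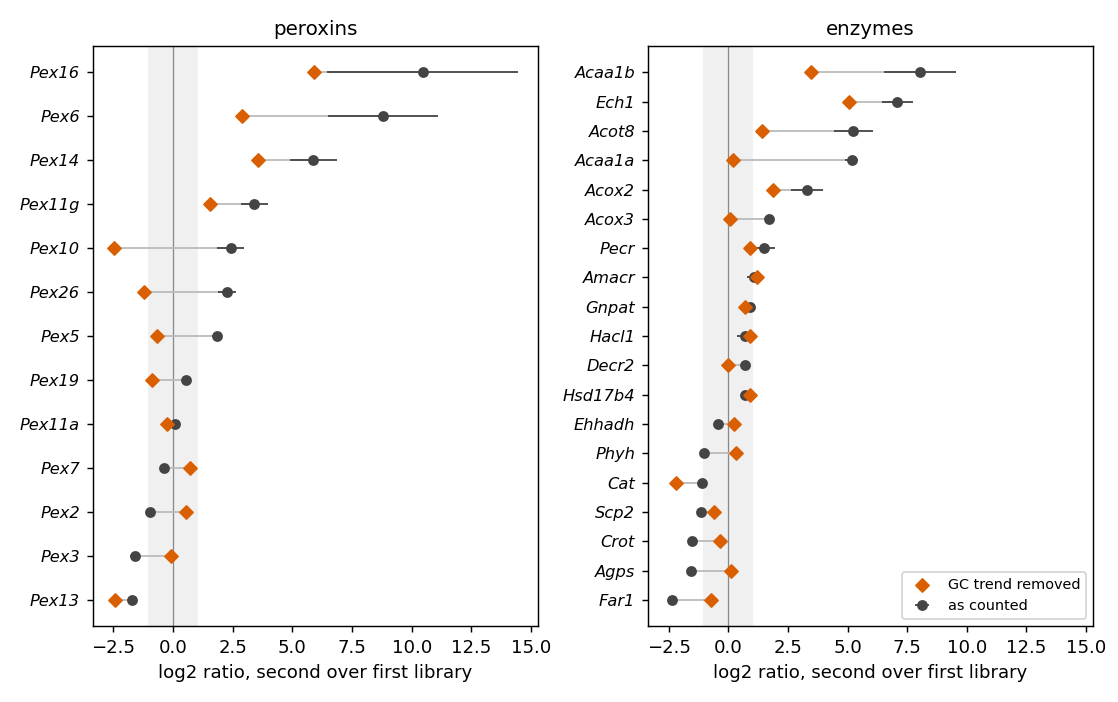
Log2 ratio of the second over the first library for each peroxin (left) and enzyme (right). Circles are the ratio as counted, with a bar for the 95% counting interval, diamonds the ratio after removal of the GC trend, and the grey band marks differences under 2-fold (Pex16, at 0 counts in the first library, is drawn with a prior count); Pex10 and Pex26 cross from one side of 0 to the other, while Ech1 and Pex14 stay on the right.

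Import receptors recognise the matrix enzymes. Pex5, the receptor for the signal at the carboxyl end, stood at 2.77 and 25.7 TPM. Its log2 ratio was 1.83 ± 0.10, and -0.69 with the GC trend removed. Pex7, the receptor for the signal near the amino end, stood at 12.7 and 22.2 TPM, and its log2 ratio was -0.36 ± 0.08 and 0.70 after removal. The GC content behind that last value is uncertain, since its main transcripts differ in length between the deposited tables and the sequences used here. Pex7 thus had more TPM than Pex5 in the first library and slightly less in the second, so these libraries give no stable order for the receptors.

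Coding sequences were searched for simple patterns of these signals. A type 1 match was scored where the last 3 residues were serine, alanine or cysteine, then lysine, arginine or histidine, then leucine or methionine. Of 21782 coding genes 0.514% matched, against 9 of 19 enzymes and 0 of 13 peroxins. A type 2 match was scored in the opening 40 residues for arginine or lysine, then leucine, valine or isoleucine, 5 residues of any kind, histidine or glutamine, and leucine or alanine. It was found in 0.744% of coding genes, in 3 enzymes and in 1 peroxin, Pex11a, a membrane protein. Neither match was found in Acox2, Acox3, Hacl1, Amacr, Cat, Agps and Far1. A match is a description of these letters and does not show import, and a missing match does not show that a signal is absent. Enzymes with a type 1 match summed to 728 and 2167 TPM and those with a type 2 match to 417 and 741 TPM.

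The final 10 codons before the stop codon are shown for 4 of the 9 type 1 enzymes, chosen after their values were seen as ones the results turn on, and for catalase, with the last 3 codons in capitals. They lie in the final coding exon on mm10 at chr4:108044753-108044782 for Scp2, chr7:28832076-28832105 for Ech1, chr5:8966855-8966884 for Crot, chr16:21762087-21762116 for Ehhadh and chr2:103454759-103454788 for Cat.
Scp2: cttcagcttcagccgggcaaaGCTAAGCTG
Ech1: gacacaaaaagcatcaccttcTCCAAGCTC
Crot: atgatacagctgatgaacaccGCTCATCTT
Ehhadh: agcttggcaggaccccatagcAGCAAACTG
Cat: cacatggctgcgaagggaaaaGCTAACCTG
Cat ends in codons for alanine, asparagine and leucine, which the searched pattern does not cover. The type 2 matches are shown as their 9 codons, with the codons of the fixed residues in capitals, from chr9:119341521-119341547 for Acaa1a, chr9:119156962-119156988 for Acaa1b and chr2:4919094-4919120 for Phyh.
Acaa1a: CGGCTGcaggtagtgctgggcCACCTG
Acaa1b: CGGCTGcaggtagtgctgggtCACCTG
Phyh: CGGCTGcaggtccttctgggaCACCTC
The thiolase genes Acaa1a and Acaa1b differ at 44 of 1272 coding bases, an identity of 96.5%, so reads could be shared between them. The deposited posterior standard deviation of the count was 0.27 in the first library and 13.4 in the second, for each gene. In the second library the counts were 6144 for Acaa1a and 1411 for Acaa1b, so the estimated uncertainty of their split was small there.

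The docking complex holds cargo-loaded receptors at the membrane. Pex14, its central subunit, had 8 and 777 counts, or 0.20 and 22.7 TPM. Its log2 ratio of 5.88 ± 0.50 became 3.55 after removal of the GC trend, and was 1.66 with weighted GC content. Pex13, its partner, had 2068 and 984 counts, or 17.9 and 19.9 TPM, and was lower in the second library at -1.70 ± 0.06 and -2.44. That lower value depends on which transcripts set the GC content: weighted by transcript share, GC fell from 51.1% to 41.1% and the log2 ratio was 0.11. The subunits of this complex therefore went in opposite directions by count, with Pex14 higher and Pex13 lower in the second library.

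The ubiquitin ligase marks receptors for recycling, and an ATP-driven motor then pulls them out of the membrane. Pex2, a ligase subunit, stood at 25.8 and 30.6 TPM, the highest peroxin of the first library, with a log2 ratio of -0.97 ± 0.06 and 0.56 after removal. Pex10, another ligase subunit, stood at 0.58 and 7.74 TPM. It turned from 2.42 ± 0.29 to -2.45 after removal, from called higher in the second library to called higher in the first, and was -1.55 with weighted GC content. Pex6, an ATPase of the motor, had 1 and 1038 counts, or 0.01 and 18.1 TPM. The scaled ratio of Pex6 counts was 669 with an exact 95% counting interval of 120 to 26465, and its log2 ratio was 2.89 after GC removal and 2.19 with weighted GC content. Pex26, the membrane anchor of the motor, stood at 0.62 and 7.07 TPM, with 2.27 ± 0.20 turning to -1.21. Neither of these motor genes reached 1 TPM in the first library, and both did so in the second.

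Membrane assembly needs Pex19, the cytosolic carrier of membrane proteins, and Pex3 and Pex16, its anchors. Pex16 lies at chr2:92374676-92381217 on the plus strand and had 0 counts in the first library and 1089 in the second, or 0 and 54.2 TPM. On the TMM-scaled library size a floor of 3 counts is 0.142 CPM, and against that floor the second library was at least 234-fold higher for Pex16. Its anchor partner Pex3 was detected in both, at 14.5 and 11.4 TPM, and its log2 ratio was -1.61 ± 0.09 and -0.09 after removal. Pex19 stood at 16.7 and 87.3 TPM, the highest peroxin of the second library, with 0.55 ± 0.05, -0.88 after removal and 0.20 with weighted GC content, under 2-fold each time. The first library thus held reads of Pex3 and Pex19 and none of Pex16. At this bound Pex16 still lies above the median peroxin, so the median of 1.83 does not depend on its value.

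Division and proliferation of the organelle involve the Pex11 proteins, which elongate its membrane. Pex11a had 811 and 1319 counts, or 13.8 and 37.0 TPM. It was the only member that missed the adjusted threshold, with a log2 ratio of 0.07 ± 0.06 and an adjusted p of 0.306 in the exact binomial test, and it stood at -0.23 after removal. Pex11g stood at 0.36 and 11.7 TPM, and its log2 ratio was 3.41 ± 0.29 and 1.55 after removal. Pex11a was above Pex11g in both libraries.

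Core beta-oxidation runs from acyl-CoA oxidases through bifunctional enzymes to thiolases. Acox2, the oxidase for branched chains and bile acid precursors, stood at 0.48 and 7.15 TPM, and its log2 ratio was 3.30 ± 0.35 and 1.87 after removal. Acox3, a further branched-chain oxidase, stood at 3.81 and 41.6 TPM, with 1.72 ± 0.08 falling to 0.06. Ehhadh, the L-bifunctional enzyme, stood at 60.0 and 109 TPM, with -0.42 ± 0.03 and 0.22. Hsd17b4, the D-bifunctional enzyme used for branched chains and very long chains, stood at 39.3 and 153 TPM, with 0.70 ± 0.03 and 0.92. The bifunctional enzymes were thus well detected in both libraries and differed by less than 2-fold in TMM-scaled counts, whereas Acox2 was under 1 TPM in the first.

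Thiolases make the last cut. Acaa1a stood at 1.25 and 189 TPM and Acaa1b at 0.07 and 52.6 TPM. The log2 ratio of Acaa1a was 5.18 ± 0.14 and fell to 0.19 after removal, with its GC content at 59.6%, and was 0.78 with weighted GC content. Acaa1b had 3 rounded counts in the first library and 1411 in the second, a scaled ratio of 303 with an exact 95% interval of 104 to 1473, and 3.46 on the log2 scale after removal. Scp2, which encodes both a thiolase for branched chains and the sterol carrier protein, was the most abundant member at 452 and 1438 TPM. Its counts ran the other way, 32762 and 22933, with a log2 ratio of -1.15 ± 0.01 and -0.60 after removal. The effective length of Scp2, which depends on the transcript shares given below, was 2449 bases in the first library and 847 in the second.

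Alpha-oxidation removes a single carbon from branched fatty acids such as phytanic acid. Phyh, its opening hydroxylase, stood at 416 and 499 TPM, and its log2 ratio was -1.01 ± 0.02 and 0.33 after removal. Hacl1, the lyase of the pathway, stood at 2.00 and 10.8 TPM, with 0.70 ± 0.17 and 0.92. Amacr, the racemase that prepares the products for beta-oxidation, stood at 2.05 and 10.5 TPM, with 1.07 ± 0.14 and 1.20. The hydroxylase was far more abundant than the lyase and the racemase in both libraries, and Hacl1 and Amacr lay close together in each.

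Auxiliary enzymes handle double bonds and the export of products. Ech1, an isomerase of dienoyl-CoA, lies at chr7:28825217-28832247 and had 19 and 4113 counts, or 0.78 and 204 TPM. Its log2 ratio of 7.09 ± 0.33 stayed at 5.07 after removal of the GC trend, the highest among members with counts in both libraries. Decr2, a dienoyl-CoA reductase, stood at 11.1 and 44.3 TPM, with 0.70 ± 0.07 and -0.01. Pecr, an enoyl-CoA reductase, stood at 1.53 and 10.8 TPM, with 1.51 ± 0.24 and 0.91. Ech1 was below Decr2 in the first library and above it in the second. Acot8, a thioesterase, stood at 0.54 and 47.3 TPM, with 5.25 ± 0.41 and 1.42. Crot, which forms acylcarnitines for export, stood at 156 and 134 TPM, with -1.51 ± 0.02 and -0.34. Among these 5 enzymes Crot was thus high in both libraries, while Ech1 and Acot8 were under 1 TPM in the first and well above it in the second.

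Catalase, which breaks down hydrogen peroxide, had 15890 and 11511 counts from Cat, or 222 and 251 TPM. Its log2 ratio was -1.10 ± 0.02 and went to -2.19 after removal, below the GC trend. Weighted by transcript share, the GC content of Cat fell from 51.9% to 48.7%, and its log2 ratio was -1.13, just past the 2-fold limit.

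Ether lipid synthesis starts in the peroxisome. Gnpat, its acyltransferase, stood at 6.75 and 26.3 TPM, and its log2 ratio was 0.91 ± 0.09 and 0.70 after removal. Agps, which places the ether bond, stood at 13.3 and 9.97 TPM, with -1.57 ± 0.06 and 0.13. Far1, the fatty alcohol supplier, stood at 12.9 and 5.69 TPM, with -2.36 ± 0.08, -0.71 after removal and 0.09 with weighted GC content. Agps and Far1 were higher in the first library by TPM and by count, and under 2-fold apart once the trend was removed. With them, Pex3 and Crot complete the 4 members that had more TPM in the first library. On TPM rescaled without mitochondrial genes, Pex7, Pex13, Pex2, Pex11a, Ehhadh, Phyh and Cat were also higher in the first library.

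Transcript shares were described for the 13 members at 10 TPM or more in both libraries. In 10 of them the same transcript led in both. The exceptions were Scp2, Pex19 and Pex7, and in Pex13 the leading transcript lost more than 20 percentage points. Scp2-201, 2640 bases long with 547 codons and encoding the thiolase joined to sterol carrier protein, held 99.9% of Scp2 TPM in the first library and 13.0% in the second. Scp2-202, 772 bases long with 143 codons and encoding sterol carrier protein alone, held 0.01% and 65.1%, or 0.07 and 935 TPM. The longer form went from 452 to 187 TPM, so the whole excess of Scp2 TPM in the second library lay in short transcripts. Their GC contents are 44.8% for Scp2-201 and 52.7% for Scp2-202.

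Pex19-202 held 96.4% and 15.7% of its gene's TPM, while Pex19-201, with 0 counts in the first library, held 74.7% in the second. Pex19-201 has 299 codons and a GC content of 52.9%, and Pex19-202 has 207 codons and 47.0%. Pex13-201 held 98.9% and 64.2%, and the gap in the second library was filled by Pex13-203, a short transcript annotated for nonsense-mediated decay, with 33.6% of the TPM from only 24 counts. In Scp2, Pex19 and Pex13 the transcript that gained share was the more GC-rich. Pex7-203 led in the first library with 60.9% and Pex7-201 in the second with 91.2%. The length of both Pex7 transcripts differs between the deposited tables and the sequences used here, so their GC content is uncertain. In those sequences Pex7-201, which gained share, is at 44.0% GC and Pex7-203 at 52.7%, the reverse of the order in the other genes. The Pex7 values after GC removal rest on the same sequences. Acaa1a, chosen after its values were seen and under 10 TPM in the first library, had 0 counts there for its main coding transcript Acaa1a-201, and 105 for Acaa1a-209, which retains an intron. In the second library Acaa1a-201 had 4498 counts and 151 TPM.

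**Figure D4:**
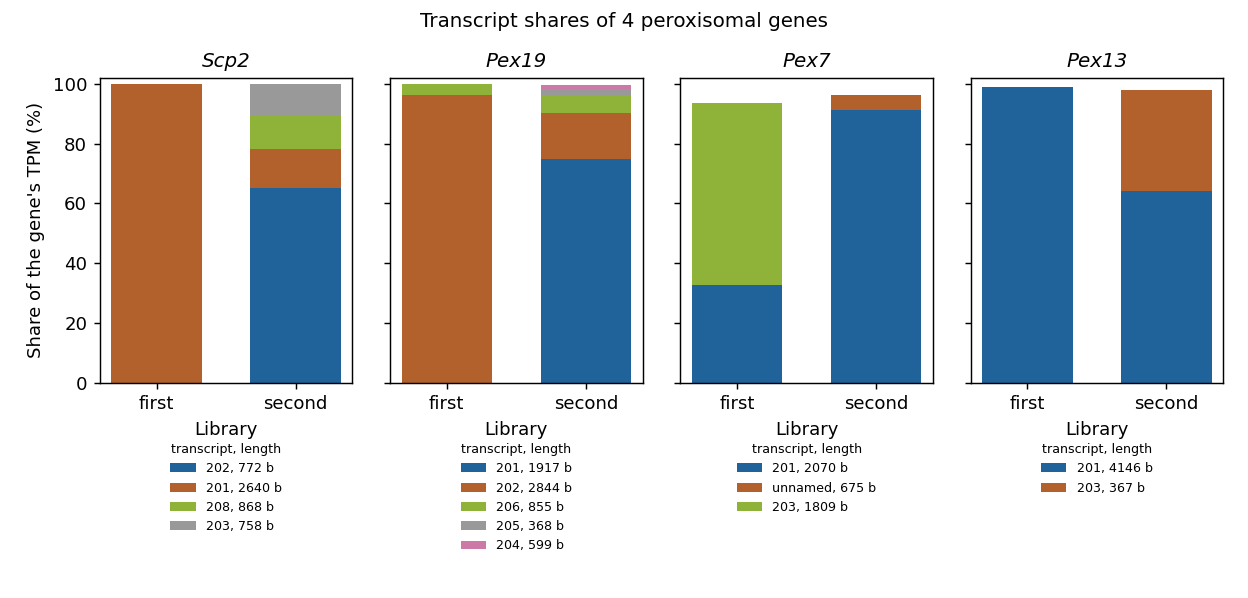
Share of each gene's TPM in percent (vertical axis) held by its transcripts in the first and the second library, for the 4 members whose leading transcript changed or lost over 20 points. Colours are transcripts at 1 TPM or more in either library, numbered as in the annotation with their length in bases, and the rest of each bar up to 100% lies in transcripts not drawn; the long Scp2-201 fills the first bar and the short Scp2-202 most of the second.

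Beyond the members, 48 other genes of peroxisomal proteins were found and 43 tested. The second library was called higher for 14 and the first for 14, or 32.6% each against 40.2% and 27.5% of all genes tested, at a median log2 ratio of -0.36. Once the GC trend was removed the numbers were 8 and 3, or 18.6% and 6.98% against 17.5% and 17.6%, at a median of -0.04. Ephx2, the soluble epoxide hydrolase, stood at 231 and 534 TPM, a level like that of the most abundant members. Idh1, which supplies NADPH, stood at 286 and 292 TPM, and Prdx5, a peroxiredoxin, at 8.34 and 478 TPM. The Prdx5 log2 ratio was 5.75 and remained 2.24 after removal, while that of Idh1 went from -1.25 to -0.19.

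Regulators of peroxisomal genes include the nuclear receptors of the PPAR family, their RXR partners and coactivators. Among 10 such genes the second library was called higher for 7 and the first for 1, which is 70.0% and 10.0% against 40.2% and 27.5% of all genes. The median GC content of this list is 55.4%, and 72.7% of all genes at 50% GC or more were higher in the second library. Once the trend was removed the numbers were 4 and 1 of these 10 genes, against 17.5% and 17.6% of all genes. Hnf4a, a receptor of gut and liver epithelium, stood at 27.3 and 223 TPM, and its log2 ratio turned from 1.65 to -1.66. Esrra, an estrogen-related receptor, had 5 and 5410 counts and stood at 0.13 and 152 TPM, with 9.31 and 3.63. Ppard and Rxra stood at 0.56 and 93.0 TPM and at 1.52 and 59.9 TPM. Counts in the first library were 5 for Esrra, 49 for Ppard and 212 for Rxra, but 3370 for Hnf4a, at GC contents of 61.6%, 59.1%, 58.6% and 56.0%. Among 14 PPAR targets outside the peroxisome the second library was called higher for 7 and the first for 1. These are 50% and 7.14% against the same 40.2% and 27.5%. After removal of the trend they were 3 and 1, or 21.4% and 7.14% against 17.5% and 17.6%. The most abundant of them were Creb3l3 at 8.06 and 258 TPM, Acadl at 81.5 and 119 TPM, Acadm at 45.5 and 105 TPM and Acadvl at 1.29 and 133 TPM. For the later, non-peroxisomal steps of plasmalogen synthesis, 3 of 6 genes were called higher in each library, and 1 in each after removal. These shares are 50% each against 40.2% and 27.5% of all genes, and 16.7% each against 17.5% and 17.6% after removal. Chpt1, a choline phosphotransferase, was the highest of these at 372 and 185 TPM.

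Promoter windows from RefSeq on GRCm38.p6, 250 bases before to 50 after a start, were matched for 28 members in 32 windows. Their median GC content was 57.3%, against 52.7% over all 32851 windows. The nuclear receptor hexamer AGGTCA, searched on both strands, lay in 4 of the 32 windows, or 12.5%, against 16.3% of all. The direct repeat AGGTCANAGGTCA, the form bound by PPAR with RXR, was searched on both strands and contains that hexamer. With up to 2 mismatches it was found in 2 member windows, those of Cat and Acox2, or 6.25%, against 3.86% of all windows. No member window held it with 1 mismatch or fewer, against 0.554% of all windows. No match says only that these letters are not in this window.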

How the data were processed

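Poly(A) RNA of 1 mouse was measured in 2 technical libraries. Expected counts, TPM and FPKM were deposited per gene and per transcript in RSEM-style tables, per the file headers, and each transcript's share was deposited as a percent of its gene. The deposited notes give mm10 and annotation M4. For the aligner, the version of the quantifier and any read filter, the sources used here give nothing. Symbols, positions and GC content came from GENCODE M21, which named 42462 of 43346 genes. Targeting signals were read from M21 coding sequences, since no protein table was used here. Of the members' leading transcripts, 27 of 32 have the same length in the deposited tables and in M21.

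Counts were rounded and compared by a two-sided exact binomial test per gene, for genes with 20 or more counts over both libraries, with TMM sizes from edgeR 4.0.16, a prior count of 0.5 and Benjamini-Hochberg adjustment over all genes tested. A quasi-likelihood fit in edgeR was not possible with 1 library on each side. The GC trend was a lowess fit (span 0.3, statsmodels 0.14.6) over nuclear genes without mitochondrial copies, which BLAST 2.17.0 found at 95% identity over 100 bases. Both tests were tested on simulated data. Named genes were all members, up to 4 genes of highest mean TPM in each further list, markers at 0 counts, and the members whose leading transcript changed or whose largest share differed by 20 points. Members and lists were chosen with earlier results of these data known. Some peroxisomal genes of the further lists are not reported here. Alternatives were DESeq2 1.42.0 size factors, total nuclear counts, no filter, other spans, pseudocounts and prior counts, FPKM, and TPM without mitochondrial genes. GC content weighted by transcript share was added after seeing the data. Intervals and floors cover counting error only.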

Additional observations from a re-analysis of the deposited data

How the results depend on the processing

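Removing the GC trend changed most of the comparison. The median log2 ratio of peroxins turned from 1.83 to -0.088 (span 0.3) and -0.13 (span 0.6), and was 0.20 with GC content weighted by transcript share. For enzymes it went from 0.70 to 0.33, 0.28 and 0.42. Members higher in the second library numbered 9, 9 and 8 in place of 15, and in the first 4, 4 and 3 in place of 8. Of all genes, 17.5% and 17.6% were called higher in the second and the first library with span 0.3. With span 0.6 these shares were 16.9% and 18.6%, and with weighted GC content 15.0% and 14.0%. Scaling by total counts of nuclear genes gave 5 members higher in the first library and medians of 2.03 and 0.91; it moved the median of all genes by 0.20, and the share of member calls that were higher in the second library from 65.2% to 76.2%. DESeq2 size factors, a prior count of 2 and no filter moved no count by more than 1 member and no median beyond its counting error. The enzyme minus peroxin difference in median level was 0.54 in the mean of both libraries and 0.64 with a pseudocount of 0.1, 0.62 without mitochondrial genes, and 1.04 to 1.06 with either library left out, always with enzymes higher. Among single members the log2 ratio turned sign after GC removal for 11 of 32: Pex5 (-0.69), Pex7 (0.70), Pex2 (0.56), Pex10 (-2.45), Pex26 (-1.21), Pex19 (-0.88), Pex11a (-0.23), Ehhadh (0.22), Phyh (0.33), Decr2 (-0.012) and Agps (0.13). With weighted GC content it turned for Pex5 (-1.27), Pex7 (0.30), Pex13 (0.11), Pex2 (0.38), Pex10 (-1.55), Pex26 (-0.70), Pex11a (-0.35), Acox3 (-0.23), Ehhadh (0.088), Agps (0.18) and Far1 (0.086), against none with DESeq2 size factors, where Pex2 passed 2-fold at -1.02. The cause of these changes was not tested. Pex6, Pex16 and Acaa1b had 1, 0 and 3 rounded counts in the first library, so the size of their ratios is poorly set by counting. Why they were so low there was not tested.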
